A study of Mus musculus with 6 samples.

Results

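The 10 genes described here, Pdgfra, Pdgfrb, Dcn, Lum, Col1a1, Col1a2, Col3a1, Col6a1, Col6a2 and Thy1, are genes by which reticular cells and fibroblasts are commonly recognised. They were taken by symbol from the authors' table of 23337 genes, in which all 10 were listed. The table holds spleen endothelial cells of C57BL/6 mice, with 3 libraries from wild-type animals (WT) and 3 from Stab1-/- animals (KO), and Stab1 encodes Clever-1, an endocytic receptor found on sinusoidal and lymphatic endothelial cells. Cells positive for CD31 and negative for CD45 were sorted after collagenase digestion of the spleen, and no treatment is named. Age and sex, and whether each library came from a separate animal, are not given in the sources used here, so the p-values speak only of library-to-library spread, which may be technical. The libraries are called by the genotype and number of their column, as WT 1, WT 3, WT 4, KO 2, KO 3 and KO 4.

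Fibroblastic reticular cells build the collagen scaffold of the spleen's white pulp, and further reticular cells and fibroblasts support the red pulp, the vessel sheaths and the capsule. They read platelet-derived growth factor (PDGF) through the receptors Pdgfra and Pdgfrb, and they secrete fibrillar collagens, beaded-filament collagen VI and small leucine-rich proteoglycans. Pdgfrb and the collagens are also made by pericytes and smooth muscle cells, and mesothelial cells of the capsule make some of the same matrix. The sort keeps cells with CD31 on their surface, and from which cells the RNA of these genes came was not tested. In bulk RNA, fewer cells of a type and less RNA per cell cannot be told apart.

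The recovered depth was 40415862 to 51675125 reads per library. Stab1 was at 32.2 ± 11 RPKM (reads normalised to gene length and library size; SD, n = 3) in the wild type and 2.48 ± 0.146 in the knockout, a log2 fold change of -3.40 ± 0.22 (SE; limma adjusted p = 7.15e-05, exact permutation p = 0.1, two-sided, the smallest that 3 against 3 allows). Pecam1, the gene of the CD31 by which the cells were sorted, was at 273 to 360 RPKM. The endothelial label was also met by Cldn5, a tight-junction claudin that was not used in the sort, at 1041 to 1367. Within groups, libraries differed by more than sampling noise, and WT 1 carried the lowest weight (0.336) when limma estimated library quality.

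Per length, the 10 genes were minor transcripts of these cells, with summed RPKM of 213, 39.2 and 72.1 for WT 1, WT 3 and WT 4, and 84.4, 60.002 and 51.9 for KO 2, KO 3 and KO 4. WT 1 was the highest library and WT 3 the lowest, so both ends of the range lay in the wild type. The sum made up 0.00849% to 0.0440% of all RPKM. Dcn had the highest level averaged over the libraries, and Pdgfra and Thy1 stayed under 1 RPKM in every library.

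**Figure D1:**
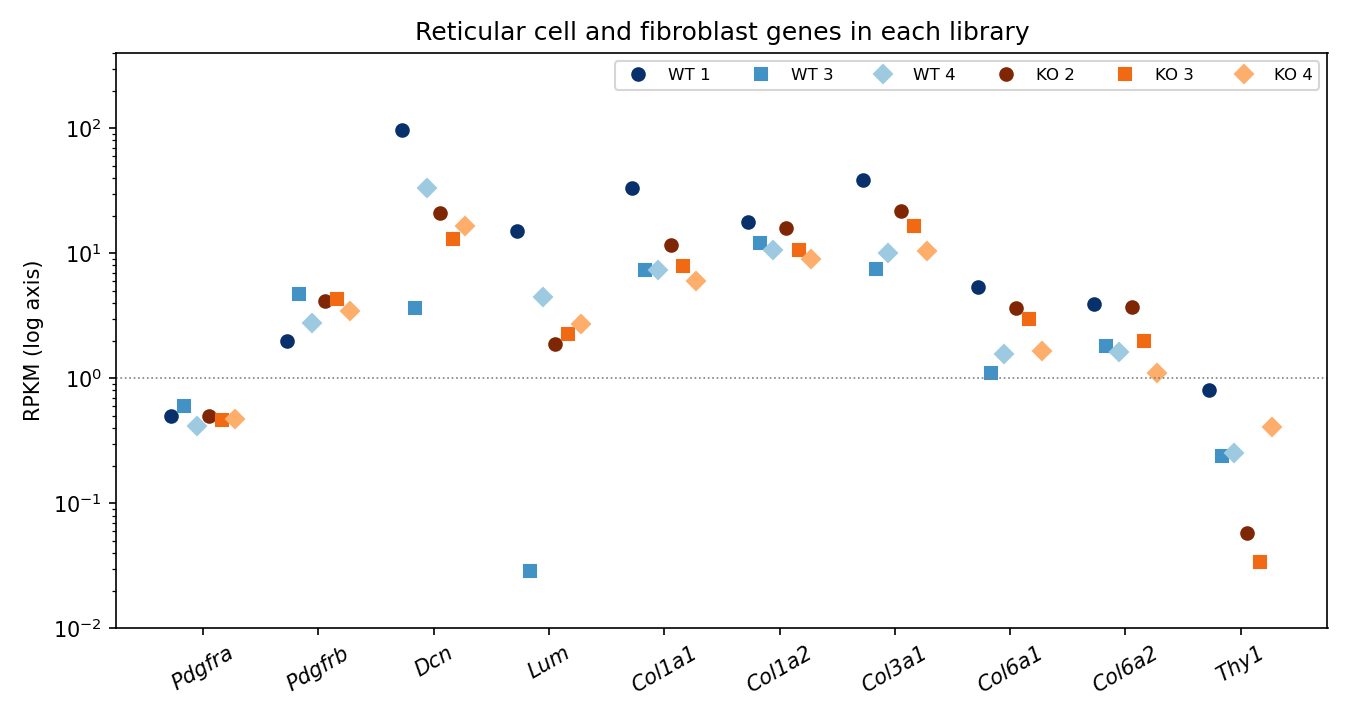
RPKM of the 10 genes in each library on a log axis, with 1 point per library, blue for wild type and orange for knockout, and a dotted line at 1 RPKM. Lum runs from 0.0286 in WT 3 to 15.2 in WT 1, while the 6 points of Pdgfra lie between 0.416 and 0.605.

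Pdgfrb encodes the PDGF receptor that binds PDGF-BB, and it marks pericytes and reticular cells. Its RPKM was 1.98, 4.69 and 2.75 for WT 1, WT 3 and WT 4, against 4.16, 4.34 and 3.47 in KO 2, KO 3 and KO 4. The lowest library was WT 1 and the highest WT 3, so the wild-type range enclosed the knockout values. The log2 fold change, knockout minus wild type on the scale of log2(RPKM + 0.5), was 0.37 ± 0.26 (SE), with a 95% interval of -0.21 to 0.94 and an adjusted p of 0.514 in limma. It was 0.12 without WT 1 and 0.66 without WT 3. With libraries weighted by estimated quality, Pdgfrb passed the test at 0.47 (adjusted p = 0.0380). That fit rested mostly on WT 4 and KO 2 and called 33.1% of all genes. Pdgfra, the receptor for PDGF-AA and a general mark of fibroblasts, was low and even. It had 0.498, 0.605 and 0.416 RPKM across the wild-type libraries (140, 206 and 128 reads) and 0.501, 0.467 and 0.473 across the knockouts (168, 160 and 130 reads). The highest library was 1.45 times the lowest, against 2.37 times for Pdgfrb. Pdgfra lay under the filter of at least 1 RPKM in at least 3 libraries, and in the fit without a filter its log2 fold change was -0.03 ± 0.11 (interval -0.29 to 0.22, adjusted p = 0.912). At this level the added 0.5 understates changes.

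The 4 PDGF ligand genes were all expressed, and 0 of 4 passed the test. Pdgfa, which encodes the A chain, had 71.1, 54.4 and 55.5 RPKM across the wild-type libraries and 46.4, 48.4 and 43.4 across the knockouts. Every knockout value lay under every wild-type value, with a log2 fold change of -0.38 ± 0.12 and an adjusted p of 0.181. Pdgfb, the B chain that endothelial cells secrete to recruit pericytes, was at 10.9, 25.3 and 14.5 against 18.1, 23.6 and 13.4 (log2 fold change 0.17, adjusted p = 0.797). Like Pdgfrb, it was lowest in WT 1 and highest in WT 3. Pdgfd had a log2 fold change of -0.58 (adjusted p = 0.230) and Pdgfc of -0.09 (0.859). Pdgfd was at -0.85 without KO 4 (adjusted p = 0.0238) and at -0.27 with trends of GC content and length removed (0.382).

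Dcn and Lum encode decorin and lumican, small leucine-rich proteoglycans that coat collagen fibrils and control their width. WT 1, WT 3 and WT 4 had 96.1, 3.68 and 33.1 RPKM of Dcn, from 8356, 388 and 3148 reads. The knockout libraries KO 2, KO 3 and KO 4 had 21.1, 13.0 and 16.5 RPKM, so all 3 lay inside the wild-type range, whose ends were 26.1-fold apart. Lum was at 15.2, 0.0286 and 4.46 RPKM in the same wild-type order, where the value of WT 3 rested on 3 reads and that of WT 1 on 1317. In the knockouts it was at 1.88, 2.26 and 2.7, again inside the wild-type range. Set against Pecam1, Dcn reached 34.0%, 1.13% and 12.1% of its level across the 3 wild-type libraries and 3.62% to 6.15% across the knockouts. Pecam1 itself was higher in every knockout library (329 to 360 RPKM) than in any wild-type library (273 to 326), which lowers the knockout percentages.

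The log2 fold change of Dcn was -0.48 ± 0.87 (interval -2.43 to 1.47, adjusted p = 0.808 in limma), and that of Lum -0.32 ± 0.94 (interval -2.43 to 1.78, adjusted p = 0.887). Which wild-type library was left out set the direction of both. Without WT 1, Dcn was at 0.53 (adjusted p = 0.741) and Lum at 0.77 (0.640). Without WT 3, Dcn was at -1.74 (interval -2.61 to -0.87, adjusted p = 0.0678) and Lum at -1.68 (interval -2.62 to -0.73, adjusted p = 0.0958). Dcn and Lum are neighbours on chromosome 10 (GRCm38, 97479500 to 97518163 and 97565501 to 97572703), 47.3 kb apart, and neither overlaps another annotated gene. Dcn exceeded Lum 5.77-fold to 11.2-fold in 5 libraries and 129-fold in WT 3, where the 3 Lum reads leave that ratio imprecise.

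Col1a1 and Col1a2 encode the chains of type I collagen, Col3a1 encodes type III collagen of reticular fibres, and Col6a1 and Col6a2 encode chains of type VI collagen. All 5 genes were highest in WT 1 and second highest in KO 2. Col3a1 and Col6a1 ranked all 6 libraries alike (WT 1, KO 2, KO 3, KO 4, WT 4, WT 3), and so did Col1a1 and Col6a2 (WT 1, KO 2, KO 3, WT 3, WT 4, KO 4). For the 4 of these genes that the RefSeq promoter table holds (build GRCm38.p6), the 150 bases before the annotated start are shown as background. Whether they bear on the ranking of the libraries was not tested. They are written 5′ to 3′ on the gene's strand, with matches to CCAAT and TATAAA in capitals. They lie at chr6:4505468-4505617 (plus strand) for Col1a2, chr1:45311388-45311537 (plus) for Col3a1, chr10:76726045-76726194 (minus) for Col6a1 and chr10:76623631-76623780 (minus) for Col6a2.
Col1a2: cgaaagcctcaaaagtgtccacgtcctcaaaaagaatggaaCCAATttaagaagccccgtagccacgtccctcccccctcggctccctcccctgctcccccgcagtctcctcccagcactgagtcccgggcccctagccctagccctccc
Col3a1: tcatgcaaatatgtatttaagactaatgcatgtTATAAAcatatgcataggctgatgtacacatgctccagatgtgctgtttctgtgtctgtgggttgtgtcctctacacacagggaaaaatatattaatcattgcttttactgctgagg
Col6a1: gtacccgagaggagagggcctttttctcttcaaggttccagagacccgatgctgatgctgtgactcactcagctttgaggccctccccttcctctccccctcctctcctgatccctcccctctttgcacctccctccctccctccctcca
Col6a2: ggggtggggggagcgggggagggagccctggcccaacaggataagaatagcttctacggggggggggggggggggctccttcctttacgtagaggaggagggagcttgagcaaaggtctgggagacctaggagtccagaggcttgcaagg
Of 32851 mouse promoter windows of this length, searched on both strands, 24.5% hold CCAAT, 7.57% hold TATAAA and 28.6% hold GGGCGG. The Col1a2 window holds 1 CCAAT, the Col3a1 window 1 TATAAA, and those of Col6a1 and Col6a2 none of the 3. No motif was found in more than 1 of the 4 windows, which describes these letters only.

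Col1a1 (11:94936224 to 94953042) had 33.3, 7.40 and 7.30 RPKM across WT 1, WT 3 and WT 4, against 11.7, 7.88 and 6.05 across KO 2, KO 3 and KO 4. Apart from WT 1 the wild-type values were nearly equal and lay inside the knockout range, with KO 2 above them, and the log2 fold change was -0.55 ± 0.50 (interval -1.66 to 0.57, adjusted p = 0.609). Col1a2 (6:4505618 to 4541543) was the most even of the 5, at 17.7, 12.2 and 10.6 against 15.9, 10.6 and 8.99, where the highest library was 1.97 times the lowest. Its log2 fold change was -0.19 ± 0.23 (interval -0.71 to 0.33, adjusted p = 0.711). The ratio of Col1a1 to Col1a2 was 1.88 in WT 1 and 0.606 to 0.741 in the other 5 libraries. WT 1 was thus the only library with more Col1a1 than Col1a2 per length.

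Col3a1 (1:45311538 to 45349706) had 38.5, 7.45 and 9.998 RPKM across the wild-type and 21.7, 16.4 and 10.5 across the knockout libraries. All 3 knockout libraries lay above WT 3 and WT 4 and below WT 1. Its log2 fold change was 0.11 ± 0.51 (interval -1.02 to 1.24, adjusted p = 0.926), while its mean RPKM was 18.7 ± 17.2 (SD, n = 3) for the wild type and 16.2 ± 5.64 for the knockout, so the log scale and the means differ in sign. Without WT 1 it was 0.81 (interval 0.20 to 1.42), with an adjusted p of 0.204. Relative to Col1a1, Col3a1 stood at 1.16, 1.01 and 1.37 across the wild-type and at 1.86, 2.08 and 1.73 across the knockout libraries. These ratios did not overlap between the genotypes, and they were chosen for mention after their values were seen and were not tested.

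The wild-type libraries had 5.38, 1.10 and 1.57 RPKM of Col6a1 and the knockouts 3.67, 2.96 and 1.66. As with Col3a1, the knockout values lay between WT 1 and the other wild-type libraries. The log2 fold change was 0.23 ± 0.44 (interval -0.76 to 1.21, adjusted p = 0.824), and without WT 1 it was 0.79 (interval 0.14 to 1.44, adjusted p = 0.239). The fit weighted by quality, which rested mostly on WT 4 and KO 2, called 33.1% of all genes. In it Col6a1 passed the test at 0.78 (adjusted p = 0.0373). Col6a2, its neighbour on chromosome 10 at a gap of 85.2 kb, was at 3.92, 1.81 and 1.61 against 3.75, 1.99 and 1.11. Its groups covered nearly the same range, with a log2 fold change of -0.11 ± 0.37 (interval -0.95 to 0.73, adjusted p = 0.904).

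Thy1, a surface glycoprotein of fibroblasts and of T cells in the mouse, was close to the detection limit. The wild-type libraries had 0.802, 0.239 and 0.252 RPKM (58, 21 and 20 reads) and the knockouts 0.0579, 0.0340 and 0.409 (5, 3 and 29 reads). KO 4 lay above WT 3 and WT 4, so the groups overlapped. In the fit without a filter its log2 fold change was -0.47 ± 0.29 (interval -1.17 to 0.22, adjusted p = 0.537). The added 0.5 is of the size of these RPKM values, so this estimate and interval understate changes. The authors' deposited log2 fold change of Thy1 was -1.91, outside that interval. Of the T cell markers, Cd3d, Cd3e and Cd3g were at most at 0.123 RPKM in any library, while Cd5 (8.27 to 11.7) and Lck (6.47 to 7.81) were read in every library.

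Across the 10 genes, 8 passed the filter and 0 of these 8 passed the test of genotype at an adjusted p of 0.05, where limma called 1.94% of the 11035 genes tested. At an unadjusted p of 0.05 the count was also 0, against 15.7% of all genes, and voom on recovered reads called 0 too. Without WT 1 the count was again 0, in a fit that called 1.52% of all genes. In 0 of the 8 did the groups not overlap, against 20.3% of all genes. The median log2 fold change of the 8 was -0.15, beside 0.03 over all genes tested, and 3 were positive and 5 negative. The narrowest interval, that of Col1a2, reached 0.52 to either side of its estimate and the widest, that of Lum, 2.10, so for the proteoglycans differences of up to that size were not resolvable with all 6 libraries. Without WT 3, the intervals of Dcn and Lum reached 0.87 and 0.95 to either side of their estimates. With trends of GC content and length removed, the estimates were 0.21 for Pdgfrb, -0.030 for Dcn, -0.11 for Lum, -0.75 for Col1a1, -0.35 for Col1a2, -0.0050 for Col3a1, 0.089 for Col6a1 and -0.26 for Col6a2, with 0 of the 8 called. With libraries weighted by quality, 2 of the 8 were called. The weighted fit rested mostly on WT 4 and KO 2 and called 33.1% of all genes. That fit also called 13 genes named here by smallest p from the reticular cell, matrix, collagen processing, ligand and receptor lists. All 13 missed the threshold with equal weights (Bst1, Lepr, Il7, Fbln2, Postn, Col5a2, Serpinh1, Plod1, Mia3, Adamts2, Pdgfa, Pdgfd and Itga1). Lists of other cell types are outside these 13. Among them the weighted fit called, for instance, 5 of 12 endothelial and 1 of 4 tested mesothelial markers, but 0 of 2 tested T cell and 0 of 2 tested erythroid markers. In the authors' deposited table, the 10 adjusted p-values ran from 0.340 (Thy1, log2 fold change -1.91) to 0.933 (Col6a2, -0.10), and 0 of the 10 were in the authors' lists of higher or lower genes, which hold 1.1% of the genes of that table. In that table the log2 fold change of Lum was 0.955, opposite in sign to the -0.32 obtained here and to the difference between the authors' own means (6.57 in wild-type and 2.28 in knockout samples, in the same table). Among the 10, 2 genes had a sign opposite to their means there. The other was Col3a1, at 0.164 with means of 18.7 in wild-type and 16.2 in knockout samples. Voom on recovered reads gave 0.89 for Lum (adjusted p = 0.820).

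**Figure D2:**
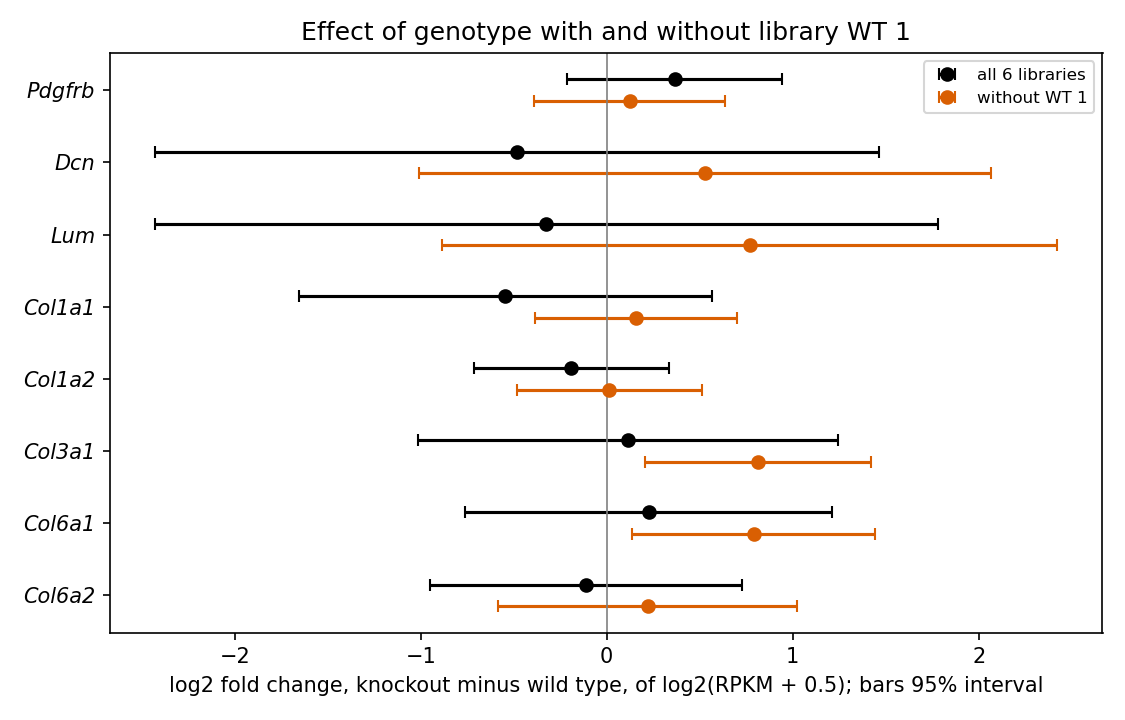
Log2 fold change of each of the 8 tested genes, knockout minus wild type on the scale of log2(RPKM + 0.5), with all 6 libraries (black) and without WT 1 (orange); points are limma estimates and bars 95% intervals. Every black bar crosses 0, Dcn, Lum, Col1a1, Col1a2 and Col6a2 move from below to above 0 without WT 1, and the orange bars of Col3a1 and Col6a1 lie above 0 with adjusted p of 0.204 and 0.239.

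Much of the spread of these genes lay within the wild type. The SD of log2(RPKM + 0.5) over the 3 wild-type libraries was 2.49 for Lum, 2.31 for Dcn, 1.23 for Col3a1, 1.22 for Col1a1 and 0.99 for Col6a1, where the median gene had 0.18. Only 0.00906% of all genes tested had an SD at or above that of Lum, which is Lum itself, and 0.0362% one at or above that of Dcn. Pdgfrb (0.54), Col6a2 (0.58) and Col1a2 (0.37) were nearer to the bulk of genes. Over the 3 knockout libraries the order differed, since Col6a2 had 0.70, Col3a1 0.51, Dcn 0.34 and Lum 0.21, beside a median of 0.14. Whether the genotypes differ in spread was not tested.

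**Figure D3:**
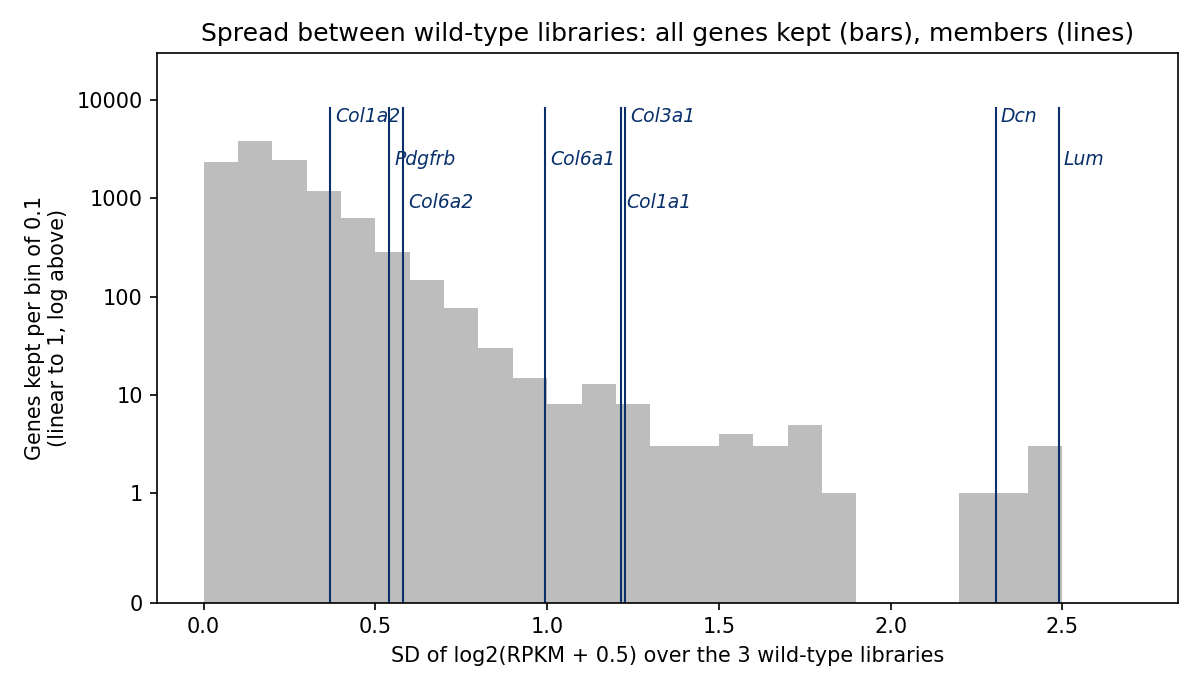
Histogram of the SD of log2(RPKM + 0.5) over the 3 wild-type libraries for the 11035 genes tested (grey bars, count axis linear to 1 and logarithmic above), with a vertical line for each of the 8 reticular cell and fibroblast genes. Dcn at 2.31 and Lum at 2.49 lie at the far right, Col1a2 at 0.37 lies in the body of the distribution.

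WT 1 was the highest library for 7 of the 8 tested genes, all but Pdgfrb, whereas 22.1% of all genes tested were highest there. WT 3 was lowest for 4 of the 8 (Dcn, Lum, Col3a1 and Col6a1), against 17.5% of all genes, and KO 4 was lowest for 3, against 8.99%. The 8 genes thus did not share 1 order. Averaged as standardized log2 values, their common profile was 1.12, -0.67 and -0.35 for WT 1, WT 3 and WT 4 and 0.52, -0.05 and -0.57 for KO 2, KO 3 and KO 4. Over the 6 libraries Col3a1 (Pearson r = 0.98), Col6a1 (0.96) and Col1a1 (0.93) followed that profile most closely and Pdgfrb ran against it (-0.57). These values describe 6 shared libraries and include each gene in the average.

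Of 26 other fibroblast matrix genes, 19 passed the filter and 0 were called in either direction (median log2 fold change -0.11), where 0.671% of all genes were called higher and 1.27% lower. 9 of the 19 were highest in WT 1 and 4 were lowest in WT 3. Fbln2, a fibulin of elastic fibres and basement membranes, had the smallest p, with 53.8, 63.9 and 50.6 RPKM across the wild-type libraries and 97.8, 76.6 and 72.8 across the knockouts (log2 fold change 0.55 ± 0.14, adjusted p = 0.0857). Its groups did not overlap, and it was not highest in WT 1. Postn, Serpinf1 and Col5a2 came next, at -0.90 (adjusted p = 0.189), -0.57 (0.466) and 0.36 (0.471). Postn was at -1.26 without WT 3 (adjusted p = 0.0271) and at -0.38 with trends of GC content and length removed (0.415).

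Some of the matrix genes, named here after their values were seen, varied as Dcn and Lum did. Dpt (dermatopontin, which binds decorin) had 7.14, 0.447 and 3.40 RPKM across WT 1, WT 3 and WT 4, against 2.32, 0.854 and 0.808 across the knockouts. Igfbp6, a secreted binding protein of insulin-like growth factor 2, was at 15.3, 0.138 and 6.98 against 6.49, 6.12 and 3.46. Both were highest in WT 1 and lowest in WT 3. Others were even across the libraries, such as Twist1, a mesenchymal transcription factor, at 17.2 to 19.3, Bgn, the proteoglycan biglycan, at 28.2 to 45.6, and Sparc, a collagen-binding glycoprotein that endothelial cells also make, at 4506 to 7019.

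**Figure D4:**
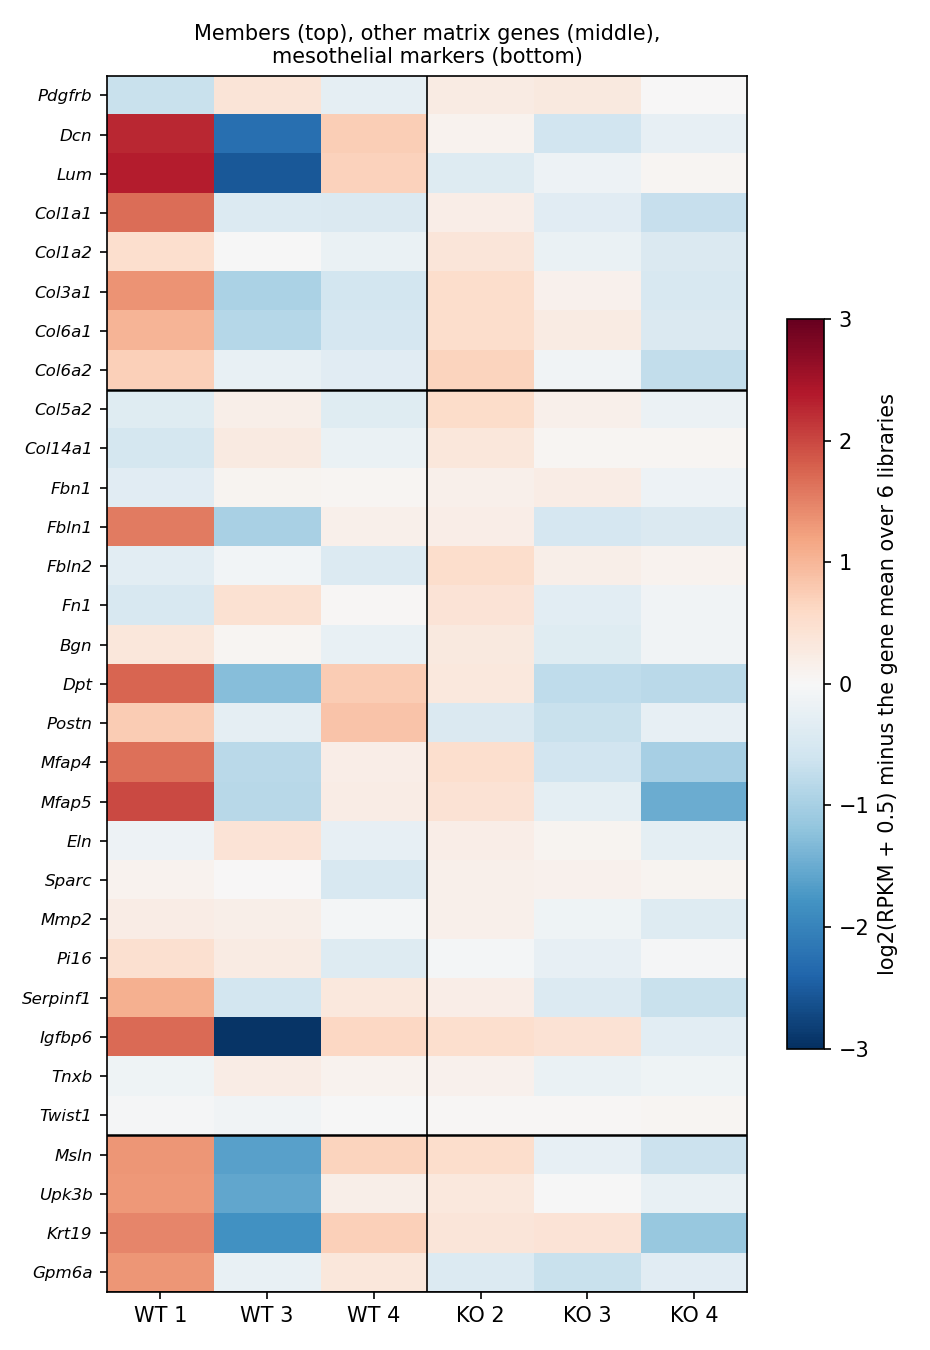
Deviation of log2(RPKM + 0.5) from each gene's mean over the 6 libraries, red above and blue below, for the 8 tested reticular cell and fibroblast genes (top), the 19 tested other matrix genes (middle) and the 4 tested mesothelial markers (bottom). Dcn, Lum, Dpt, Igfbp6, Msln, Upk3b and Krt19 are among the genes that are red in WT 1 and blue in WT 3. Pdgfrb, Fn1, Col14a1, Col5a2, Fbn1, Eln and Tnxb run the other way.

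Of 17 other reticular cell genes, 11 passed the filter, 0 were called higher and 1 lower (median log2 fold change -0.11). The gene called was Cxcl13, a B cell attracting chemokine of follicles, with 76.0, 67.6 and 43.7 RPKM across the wild-type libraries and 19.1, 14.2 and 14.6 across the knockouts. It fell by 1.91 ± 0.20 on the log2 scale (limma adjusted p = 0.00159). Unlike the collagens and proteoglycans, its 3 knockout libraries all lay below its 3 wild-type libraries. Bst1 (-1.07, adjusted p = 0.151), Lepr (-0.52, 0.278) and Il7 (-0.70, 0.329) did not pass. With trends of GC content and length removed, Lepr was at -0.27 and Il7 at -0.33. Of the 11 tested, 7 were highest in WT 1, against 22.1% of all genes, and 2 were lowest in WT 3, against 17.5%. The transcription factors of spleen mesenchyme were present in every library, with Tcf21 at 20.1 to 34.3 RPKM, Tlx1 at 7.53 to 12.4 and Nkx2-5 at 2.28 to 4.03. Each of these factors was highest in WT 1. Pdpn, the podoplanin of lymphoid reticular cells, was at 0.0447 to 0.990 and, like Col3a1 and Col6a1, was highest in WT 1 and lowest in WT 3. Ccl21a, which has near-identical copies among which reads cannot be placed with certainty, was listed at 0 in all 6 libraries.

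Genes that fold, modify and secrete collagen gave 14 tested of 18 listed, with 0 called in either direction (median log2 fold change 0.10), and only 2 of the 14 were highest in WT 1. Serpinh1, the collagen chaperone HSP47, had 532, 520 and 579 RPKM across the wild-type libraries and 737, 674 and 639 across the knockouts (log2 fold change 0.33 ± 0.09, adjusted p = 0.135). Plod1, a collagen lysyl hydroxylase, had 0.45 (adjusted p = 0.181). In both genes every knockout library lay above every wild-type library. Mia3, needed to load collagen into transport carriers, had -0.50 (adjusted p = 0.267), and Adamts2, which trims procollagen, 0.39 (0.363). Receptors for collagen and proteoglycans gave 8 tested of 13, with 0 called (median -0.21). Itga1, the integrin chain that pairs with Itgb1 to bind collagen, was at 34.1, 50.6 and 44.3 against 29.6, 29.4 and 34.4 RPKM (log2 fold change -0.45 ± 0.15, adjusted p = 0.191), and without WT 1 it passed the test (adjusted p = 0.0481). With trends of GC content and length removed, the log2 fold change of Itga1 was -0.065 (adjusted p = 0.757). Itga2 (-0.38, adjusted p = 0.429), Ddr1 (-0.35, 0.414) and Itgb2 (-0.33, 0.552) had larger p-values.

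The summed level of mesothelial markers ranked the wild-type libraries as Dcn and Lum did, although not every marker did. The 9 mesothelial markers listed in the table summed to 19.9, 2.07 and 9.06 RPKM for WT 1, WT 3 and WT 4, and to 7.55, 5.62 and 2.99 for the knockouts. For both this sum and Dcn, WT 1, WT 4 and KO 2 were the highest libraries in that order and WT 3 was the lowest. In WT 3, 6 of the 9 were listed at 0 (Msln, Upk3b, Upk1b, Lrrn4, Krt8 and Krt19), as were Krt8 and Krt18 in KO 4. Krt19, a keratin and the highest of the list, was at 4.36 RPKM in WT 1 and 2.37 in WT 4. Of the 9, 8 were highest in WT 1. Wt1, a transcription factor of mesothelium, was not, at 1.05, 1.06 and 0.913 RPKM for WT 1, WT 3 and WT 4 against 0.377, 0.165 and 0.309 for the knockouts. Gpm6a, which had the smallest p of the list, was at 3.89, 1.002 and 1.75 against 0.820, 0.614 and 0.889 (log2 fold change -0.95, adjusted p = 0.225). The genotypes did not overlap in either gene, and neither was lowest in WT 3. Of the 4 markers tested, 0 were called (median log2 fold change -0.24). The part of mesothelial RNA in the levels of the reticular cell and fibroblast genes was not tested.

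Markers of pericytes and smooth muscle, the mural cells that also make Pdgfrb and collagen, summed to 773, 629 and 581 RPKM for WT 1, WT 3 and WT 4. The knockouts KO 2, KO 3 and KO 4 had sums of 648, 703 and 600, and none of the 12 markers was at 0. Of these 12, 0 were called higher and 1 lower, Rgs5, a regulator of G-protein signalling in pericytes (log2 fold change -1.34, adjusted p = 0.0194). The adjusted p of Rgs5 was 0.103 without the filter and 0.0553, 0.0814 and 0.0922 without WT 4, KO 2 and KO 3, respectively. Acta2, smooth muscle actin, was at 320 in WT 1 and 160 to 241 in the other libraries. Kcnj8, a potassium channel of pericytes with the highest mean of the list, was at 187 in WT 1 and 225 to 258 in the others. Rgs5 (1.91 to 8.71 RPKM), Cspg4 (0.623 to 1.63) and Notch3 (0.700 to 1.88) stayed far below Kcnj8. With Kcnj8 left out, the sum was 586 for WT 1 and 356 to 473 for the other libraries. In WT 1, where the collagens were highest and Pdgfrb lowest, 6 of the 12 markers were at their highest (Acta2, Tagln, Cnn1, Lmod1, Des and Rgs5) and 4 at their lowest (Kcnj8, Abcc9, Mcam and Notch3). Of all genes tested, 22.1% were highest and 26.7% lowest in WT 1. The summed level was thus highest in WT 1, as the collagens were, while single markers went both ways. Whether the RNA of the 12 markers came from mural cells was not tested, and neither was the part of mural cells in the levels of the collagens. The 12 endothelial markers summed to 3672 to 4293 RPKM in wild-type and 4136 to 4705 in knockout libraries, with 0 called.

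**Figure D5:**
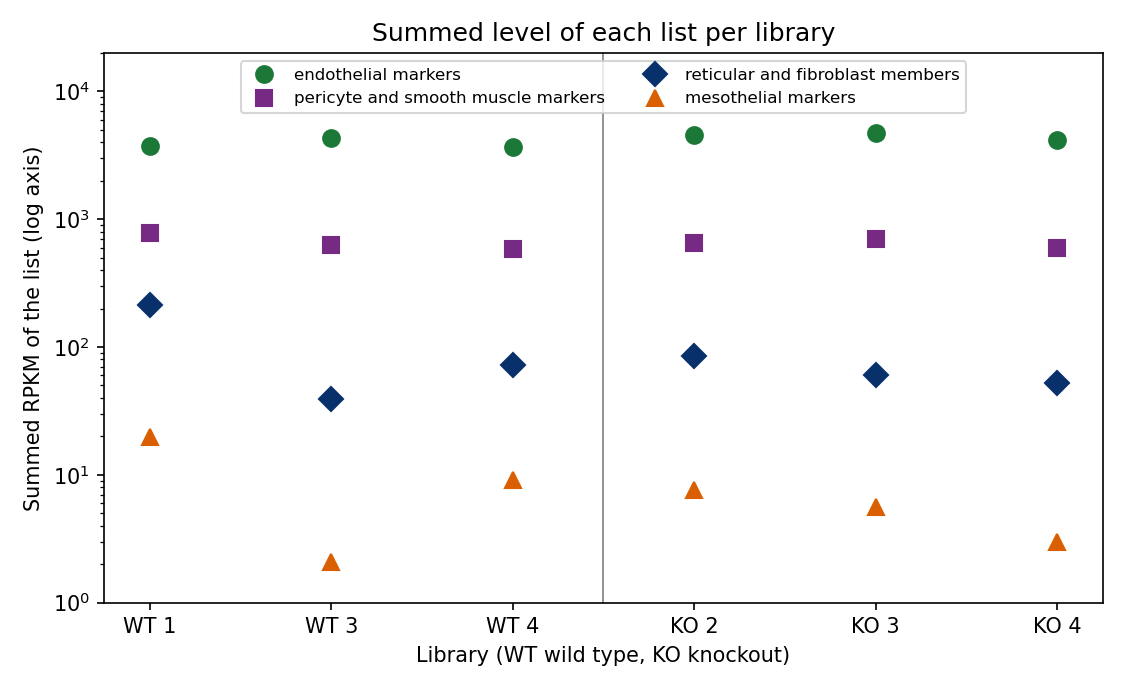
Summed RPKM per library on a log axis for 12 endothelial markers, 12 pericyte and smooth muscle markers, the 10 reticular cell and fibroblast genes and 9 mesothelial markers. The reticular and fibroblast sum (213 in WT 1, 39.2 in WT 3) and the mesothelial sum (19.9 and 2.07) drop together from WT 1 to WT 3, while the endothelial sum is 3750 and 4293.

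Blood cell markers also varied within the wild type, and the platelet sums did not overlap between the genotypes. Erythroid markers, led by Car1, summed to 48.7, 43.6 and 8.02 RPKM across the wild-type libraries and 17, 2.69 and 1.47 across the knockouts, with 0 of 2 tested called. Platelet markers, led by Pf4, summed to 123, 242 and 86.0 against 55.0, 60.6 and 71.5, with Pf4 as the 1 of 8 called (log2 fold change -1.62, adjusted p = 0.0160; 0.109 without the filter and 0.0772 without KO 3). All 8 platelet markers had negative log2 fold changes (median -0.85), although single markers such as Gp9 overlapped between the genotypes. Neither the erythroid nor the platelet sum put WT 1 first and WT 3 last as Dcn, Lum and the mesothelial sum did. Macrophage markers, led by Lyz2, summed to 11.9 to 26.9, and B cell markers, led by Cd79a, to 1.09 to 1.80 across the libraries. Genes that dissociation induces summed to 6179 to 6814 RPKM in wild-type and 6727 to 7903 in knockout libraries, with 1 of 15 called higher (Hspa8, log2 fold change 1.56, adjusted p = 0.0488, over 0.05 under 10 of 17 alternatives, among them 0.118, 0.167 and 0.0847 without KO 2, KO 3 and KO 4). The part of these sources in the members' levels was not tested.

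The genes most like the common profile of the 8, by Pearson correlation over the 6 libraries among 11027 others, were Lancl1 (r = 0.99), H2afx (0.99), Rnf166 (0.99), S100a11 (0.98), 2700046G09Rik (0.98), Hist1h4d (0.98), Dusp2 (0.98) and Tgfb3 (0.97). Their ranges were narrower than those of the proteoglycans. S100a11, a calcium-binding protein, had 81.4, 60.03 and 66.5 RPKM across the wild-type libraries and 74.1, 69.9 and 62.2 across the knockouts. Tgfb3, a transforming growth factor, had 5.0, 4.15 and 4.11 against 4.78, 4.33 and 4.08. With 6 libraries and 11027 genes such correlations are a description only, and no matrix gene was among the 8.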

How the data were processed

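RNA of sorted spleen endothelial cells from 3 wild-type and 3 Stab1-/- samples was amplified with a SMART-Seq kit and made into Nextera XT libraries, per the labels' protocols, a combination that does not mark strand. The tools limma, edgeR, Subread and STAR 2.5.2b and the build mm10 are listed with no role or settings, per the submitters' processing notes. The authors deposited RPKM for 23337 genes, and log2 fold changes with p-values in a table of 13742 genes and in shorter lists, per the file headers. The numbers of the columns are not those of the labels' replicates, so columns were placed by genotype alone.

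For all 17683 genes above 0 (100%), values were whole multiples of 1 read's worth within 0.001, which gave reads per gene. The effective library sizes behind the RPKM were 0.984 to 1.03 times those reads. Libraries of 1 group differed beyond counting error (30.3 to 99.3 in chi-square over degrees of freedom). The 11035 genes reaching 1 RPKM in 3 or more of the 6 libraries were fitted as log2(RPKM + 0.5) by genotype, using limma 3.58.1 under R 4.3.3 (intensity trend), with Benjamini-Hochberg adjustment over all of them and a threshold of 0.05. The pseudocount understates changes of low genes. The fit was tested on simulated data, and 17 alternatives were run. Positions and promoters come from RefSeq (GRCm38), whose promoter table matched 5 of the 10 genes. The gene lists (15, with 172 of 180 entries in the table) and the 10 genes were chosen with earlier results of these data known. Named were the 10 genes, in each other list any gene called, up to 4 of smallest p and, for cell markers, the highest, the 8 genes most like the common profile, Stab1, and others said to be chosen after their values were seen or given as background to a list.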

Additional observations from a re-analysis of the deposited data

How the results depend on the processing

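The test called 214 of all genes, 77 without a filter on low values, 3653 with library quality weights, and 56 to 418 with 1 library left out (56 without KO 3, 83 without KO 2, 93 without WT 4, 418 without KO 4). It called 0 of the reticular cell and fibroblast genes under 16 of 17 alternatives, including each library left out (0 to 0), and 2 with quality weights (Pdgfrb and Col6a1). With a filter of 5 RPKM, 1 of those 16, only 4 of the 8 were tested. Their median log2 fold change of -0.15 turned to 0.38 with quality weights and 0.028 with voom, and ran from -0.32 to 0.37 with 1 library left out, positive without WT 1 (0.37) and without KO 4 (0.10). Reversals of single genes were Lum (0.18 at a pseudocount of 0.1, 0.89 with voom), Col3a1 (-0.0050 with GC and length trends removed), Pdgfc (0.029 with quantile normalization) and, with quality weights, Col1a1 (0.29), Col1a2 (0.29), Col6a2 (0.60) and Pdgfc (0.017); the cause was not tested. With 1 library left out, values ran from -1.74 to 0.53 for Dcn, -1.68 to 0.77 for Lum, -0.90 to 0.16 for Col1a1, -0.41 to 0.015 for Col1a2, -0.34 to 0.81 for Col3a1, -0.15 to 0.79 for Col6a1, -0.47 to 0.23 for Col6a2, -0.10 to 0.50 for Pdgfb and -0.19 to 0.11 for Pdgfc. Stab1 and Cxcl13 kept their direction and stayed past the threshold under all 17 alternatives. Pdgfra and Thy1 could be tested only without the filter. No paired analysis was possible because the deposited columns carry numbers that do not match the labels' replicate numbers, so the planned replicate block was not run.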
